A study of Mus musculus with 18 samples.

Results

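The genes described here are 46 genes of DNA replication and S phase, out of 21967 genes in the count table. They were taken by name and role: the MCM helicase, origin licensing and firing factors, polymerases and primase, the sliding clamp and its loader, the single-strand binding protein RPA, enzymes of nucleotide supply, and factors that rebuild chromatin behind the fork. Cdt1, which loads the helicase onto origins, was listed at 0 counts in all 18 libraries, so 45 of the 46 genes passed the filter on low counts in every comparison. Zfpm1, an erythroid progenitor marker, was also listed at 0 in all 18 libraries. The cause of these zeros was not tested, so they are not read as absence of the transcripts.

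The libraries were made from 5000 to 10000 sorted mouse bone marrow cells each, of 2 types: PreCFU-E, an early erythroid progenitor, and CFU-E, the colony-forming progenitor that follows it. The cells came from 9 mice of 3 genotypes, with 3 mice per genotype lettered A, B and C (B female, A and C male), and each mouse gave both cell types. Scf FL/FL mice carry 2 floxed alleles of Scf (Kitl), the gene for stem cell factor, the ligand of KIT. Scf KO/FL mice carry 1 null and 1 floxed allele. Scf KO/FL;Lepr-Cre mice, called Lepr-Cre below, carry the same 2 alleles and Cre under the leptin receptor gene, which is active in bone marrow stromal cells, so the floxed allele is cut in the niche and not in the sorted progenitors. Every group thus carries at least 1 floxed allele, the Lepr-Cre group differs from KO/FL by Cre and the deletion, and no group has Cre without the floxed allele. No source used here gives the animals' age.

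The deposited counts summed to between 3541066 and 9389122 per library, and the 46 genes took 0.925% to 1.33% of them. Levels are given as CPM (each library's counts scaled to a common total), adjusted by the trimmed mean of M-values (TMM). Kitl itself was at 0.147 CPM or less in every library, under the 0.32 to 0.847 CPM that a count of 0 allows, so it could not check the genotypes in these cells. The 15 erythroid progenitor markers summed to between 8849 and 11617 CPM. The neutrophil, mast cell and T cell lists stayed at 6.36 CPM or less per library and the B cell list at 14.05 or less. The megakaryocyte list summed to 33.9 to 75.9 CPM. Stroma and endothelium markers summed to 20.3 to 36.1 CPM in PreCFU-E and 1.88 to 7.46 in CFU-E. The KO/FL PreCFU-E library A was the shallowest, and the Lepr-Cre CFU-E library B stood apart with the fewest genes detected, 10782.

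A eukaryotic chromosome is copied from many origins. In G1, the origin recognition complex and CDC6 load the ring of MCM2 to MCM7 onto DNA, and geminin keeps its loader CDT1 in check once S phase has begun. CDC45 and the GINS complex turn the ring into a running helicase, primase and the DNA polymerases copy the strands, PCNA tethers the polymerases and is loaded by replication factor C, and ribonucleotide reductase makes the deoxynucleotides. Most of these genes are transcribed at the G1 to S transition under E2F factors, and CFU-E are known as rapidly cycling cells. In sorted bulk samples, a smaller share of cells in S phase and less of a transcript per cell cannot be told apart, and this holds for every difference below.

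The promoters of the 5 genes that were higher in PreCFU-E of Lepr-Cre mice than of FL/FL mice (below) are shown to set the letters of the known E2F and CCAAT elements beside the genes that moved. Each is the 160 bases that end just before the RefSeq transcription start (GRCm38.p6), 5′ to 3′ along the gene, with capitals marking E2F spellings and CCAAT on either strand.
Rrm2, chr12:24708094-24708253, plus strand: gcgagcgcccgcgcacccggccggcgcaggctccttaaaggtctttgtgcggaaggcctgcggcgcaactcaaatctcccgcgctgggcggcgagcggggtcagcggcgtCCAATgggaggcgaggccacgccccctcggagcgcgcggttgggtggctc
Slbp, chr5:33652575-33652734, minus strand: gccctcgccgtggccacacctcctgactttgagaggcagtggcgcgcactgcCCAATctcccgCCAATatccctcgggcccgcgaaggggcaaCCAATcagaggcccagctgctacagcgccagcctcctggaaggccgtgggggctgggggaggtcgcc
Mcm5, chr8:75109349-75109508, plus strand: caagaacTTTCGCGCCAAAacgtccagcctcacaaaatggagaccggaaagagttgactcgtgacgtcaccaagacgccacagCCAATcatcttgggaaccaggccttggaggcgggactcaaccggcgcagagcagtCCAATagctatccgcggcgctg
Orc1, chr4:108579294-108579453, plus strand: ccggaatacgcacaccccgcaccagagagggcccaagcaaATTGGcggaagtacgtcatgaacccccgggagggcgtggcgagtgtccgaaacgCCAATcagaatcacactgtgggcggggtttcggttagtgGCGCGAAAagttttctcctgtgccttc
Chaf1b, chr16:93883741-93883900, plus strand: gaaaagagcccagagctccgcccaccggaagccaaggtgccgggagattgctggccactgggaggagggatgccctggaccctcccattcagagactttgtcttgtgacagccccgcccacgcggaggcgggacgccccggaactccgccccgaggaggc

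Mcm5 held 2 overlapping E2F spellings, at -153 and -149 from the start, and 2 CCAAT boxes. Orc1 held 1 E2F spelling at -27 and 2 CCAAT boxes, at -120 and -66. Slbp had 3 CCAAT boxes and Rrm2 had 1, with no E2F spelling in this stretch, and Chaf1b had neither. RefSeq windows of 300 bases (250 before to 50 after the start) were at hand for 38 of the 46 genes, in 44 windows. The 4 E2F spellings searched, TTTCCCGC, TTTCGCGC, TTTGCCGC and TTTGGCGC, stood on either strand in 15 of the 44 windows (34.1%), against 2.26% of all 32851 windows. CCAAT stood in 59.1% of the 44 and in 37.4% of all, CACGTG in 15.9% and 7.15%, TTTGAA in 11.4% and 17.9%, and AGATAA in 2.27% and 11.2%. The mitosis genes listed for comparison had another profile, with an E2F spelling in 3 of their 25 windows and TTTGAA, the core of the cell cycle genes homology region, in 21. These letters are a description, with no test.

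Within complexes, levels were compared per kilobase of the principal GENCODE transcript, as the mean of 18 libraries. Mcm6 led the helicase at 308 CPM per kilobase, followed by Mcm3 at 226, Mcm2 at 190, Mcm7 at 184, Mcm5 at 163 and Mcm4 at 133. The ranges of neighbouring subunits over the 18 libraries overlapped, and with the union of all exons as the length Mcm6 and Mcm3 again came first and Mcm2 last. Among nucleotide enzymes, Dut (dUTPase, which keeps uracil out of DNA) stood at 231 CPM per kilobase, Rrm1 (the large subunit of ribonucleotide reductase) at 192, Rrm2 (its small, S-phase subunit) at 121, Tk1 (thymidine kinase) at 52.2 and Tyms (thymidylate synthase) at 27.8. Pcna stood at 159 CPM per kilobase, above the 23.5 to 80.3 of the 5 clamp loader subunits. Lig1 and Fen1, which join and trim Okazaki fragments, stood at 162 and 165. The least abundant genes were the GINS subunits Gins3, at 12.2, and Gins2, at 12.7, and the polymerase epsilon subunit Pole2, at 20.1. With the union of exons as the length, Rfc3 was lowest, at 10.8 CPM per kilobase, and Rrm2 (96.1) stood above Rrm1 (69.7).

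**Figure D1:**
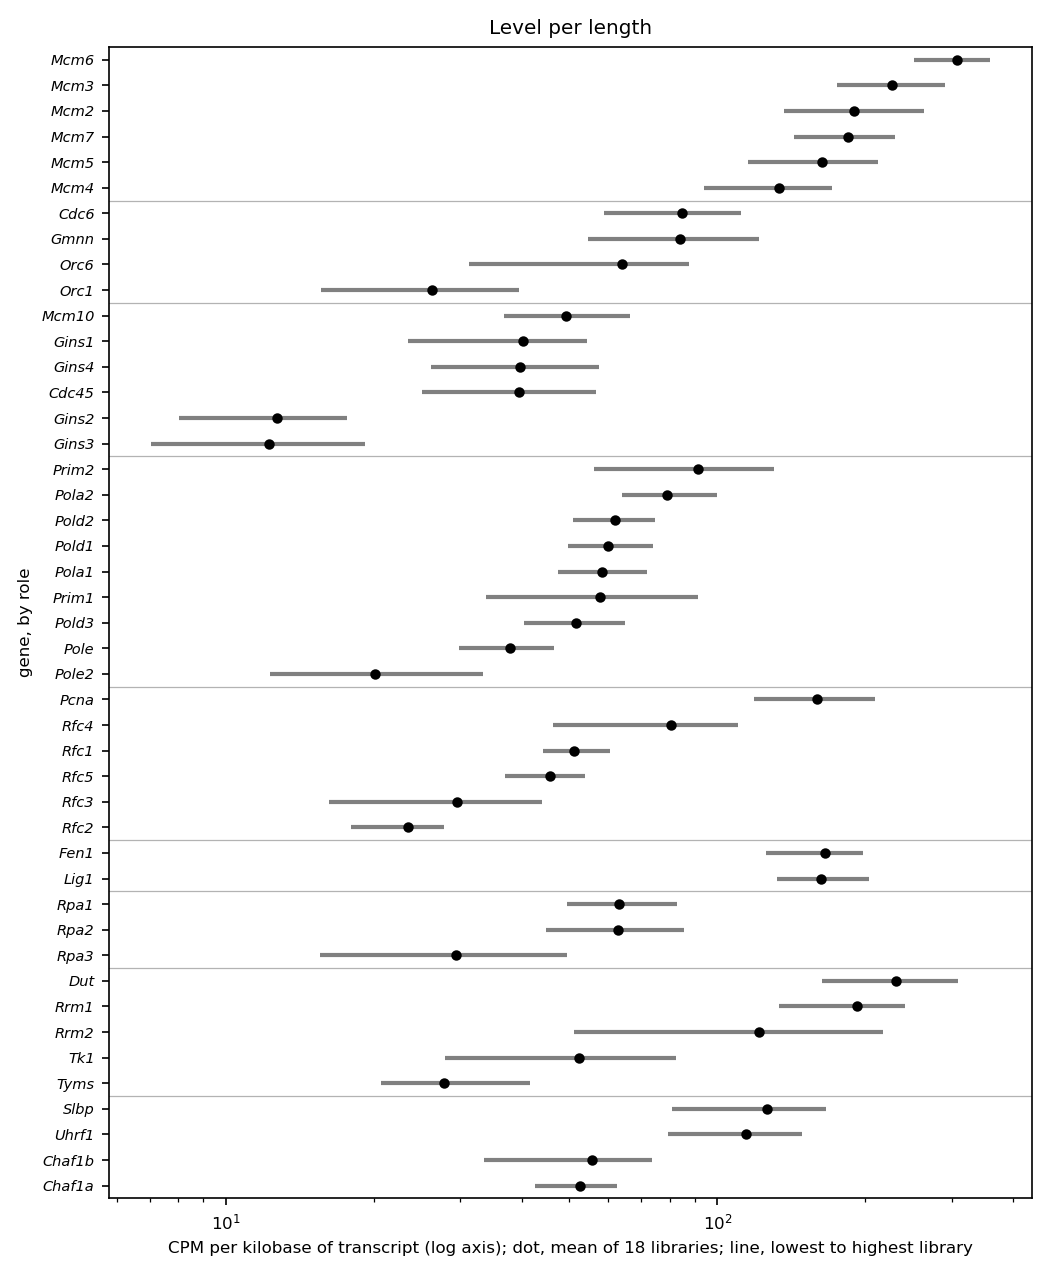
Level of each of the 45 detected genes in CPM per kilobase of transcript on a log axis, ordered within roles; dots are means of 18 libraries and lines run from the lowest to the highest library. Mcm6 leads at 308 CPM per kilobase and Gins3 is lowest at 12.2.

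The coefficient of variation within a group, averaged over the 6 groups, had a median of 9.29% over the 45 genes. Over 10732 tested genes, which were not matched for level, it was 16.01%. Pola2 (5.13%), Slbp (5.15%) and Mcm5 (5.17%) varied least, and Rpa3, at a mean of 19.7 CPM, varied most (27.2%).

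**Figure D2:**
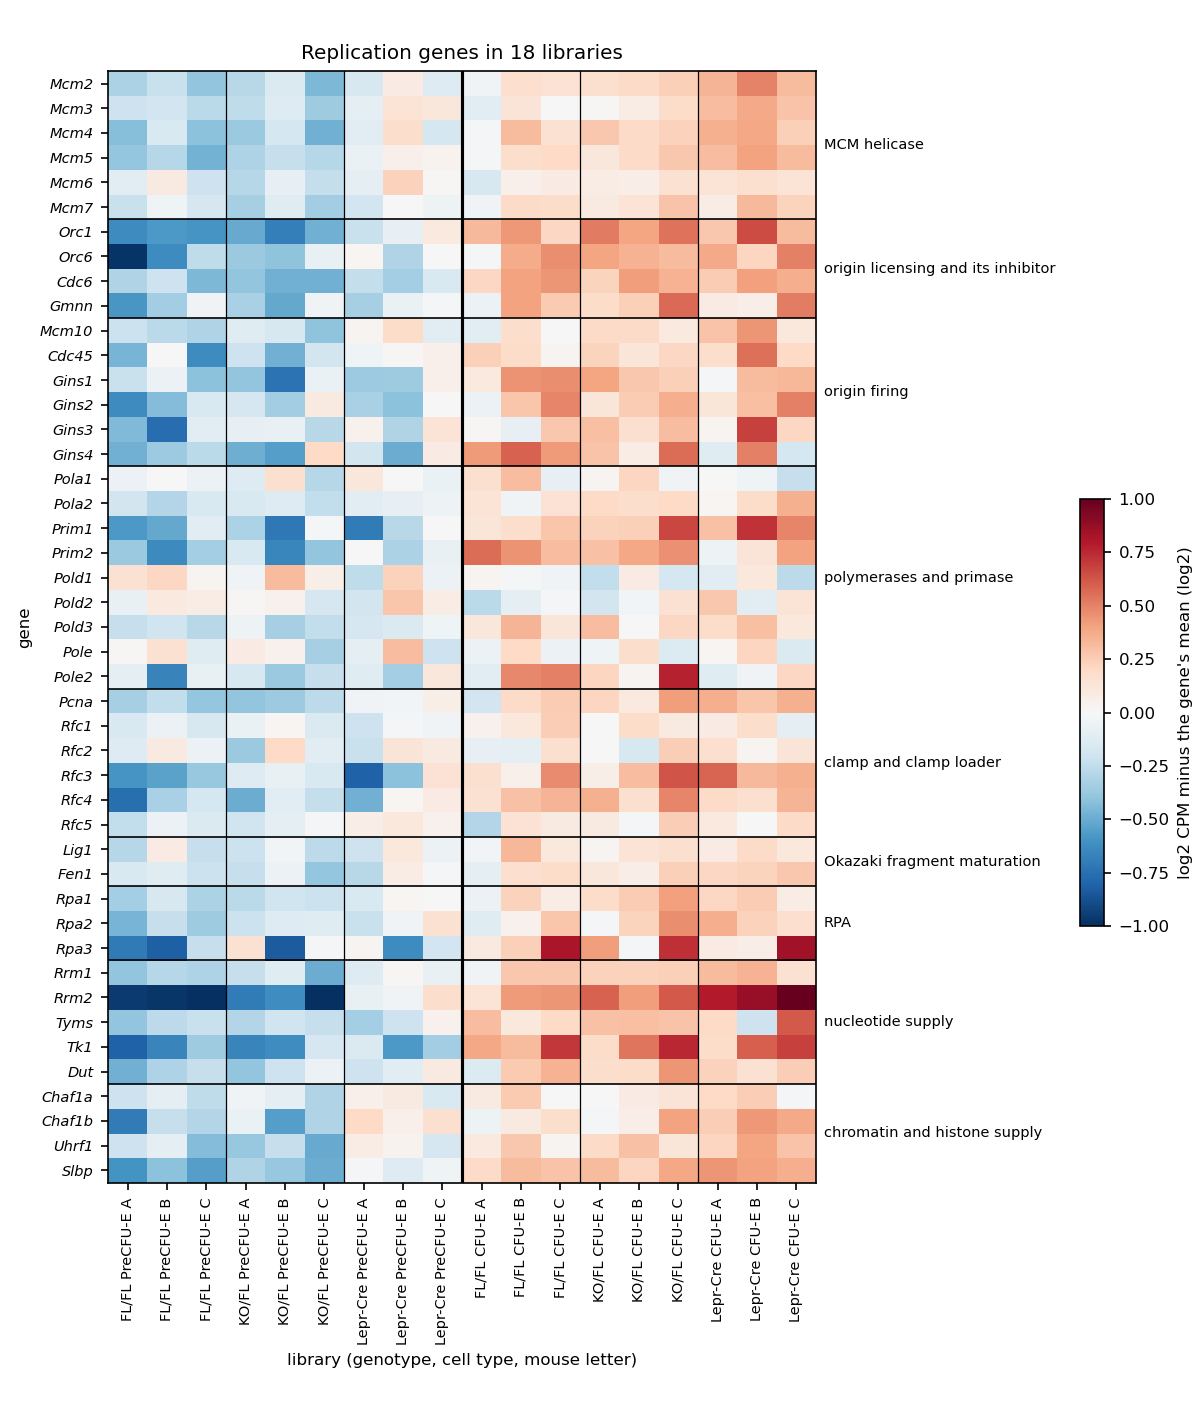
Log2 CPM of 45 replication genes in 18 libraries, each minus the gene's own mean, in rows by role and columns by group and mouse. Most rows turn from blue in PreCFU-E to red in CFU-E, and the Lepr-Cre PreCFU-E columns are paler than the other PreCFU-E columns; Rrm2 shows the widest swing.

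The first comparison was of CFU-E with PreCFU-E from the same genotype. Rrm2 had the largest log2 fold change in each genotype. Tk1, Orc1, Cdc6 and Slbp, the protein that binds the stem-loop of histone mRNAs, were also higher in CFU-E in each. In FL/FL mice 30 of 45 genes were higher in CFU-E at an adjusted p under 0.05 (edgeR's quasi-likelihood test, Benjamini-Hochberg over all tested genes), against 8.99% of 10732 tested genes. KO/FL mice also had 30 genes higher, against 6.89% of tested genes. Lepr-Cre mice had 11 higher, against 3% of tested genes. No gene of the 45 was lower in any genotype, also at an unadjusted p under 0.05 and by DESeq2, while 9.3%, 7.18% and 4.25% of all tested genes were lower. The median log2 fold change of the 45 genes was 0.48, 0.47 and 0.31 in these 3 genotypes, in that order, beside medians of 0.01, 0.00 and -0.01 over all tested genes. With the mouse as a block, which the shared mice call for, the counts were 37, 33 and 24 genes, against 13.2%, 10.3% and 5.45% of tested genes. Without the FL/FL PreCFU-E library A the FL/FL count was 18, and without the Lepr-Cre PreCFU-E library A the Lepr-Cre count was 6. That Lepr-Cre count was 8 without the Lepr-Cre CFU-E library B.

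Rrm2 rose most. In FL/FL mice A, B and C its level was 123, 122 and 112 CPM in PreCFU-E and 263, 322 and 326 CPM in CFU-E, a log2 fold change of 1.36 ± 0.11 (SE, n = 3 mice; adjusted p = 2.76e-10). In KO/FL mice it was 147, 156 and 119 CPM in PreCFU-E and 361, 319 and 366 CPM in CFU-E (log2 1.30 ± 0.11, adjusted p = 9.89e-10). In Lepr-Cre mice it was 227, 234 and 270 CPM in PreCFU-E and 415, 437 and 476 CPM in CFU-E (log2 0.86 ± 0.11, adjusted p = 4.89e-06). The cell types did not overlap in any genotype, and the call held in each genotype with any single library left out. Rrm1 moved less, so the CPM ratio of Rrm2 to Rrm1 was 0.198 ± 0.0154 (SD, n = 3) in FL/FL PreCFU-E and 0.356 ± 0.0016 in FL/FL CFU-E, and 0.337 ± 0.0362 and 0.487 ± 0.069 in Lepr-Cre PreCFU-E and CFU-E. Rrm1 itself went from 576, 620 and 612 CPM to 736, 910 and 913 CPM in FL/FL mice (log2 0.51 ± 0.10, adjusted p = 0.0005). All 5 nucleotide supply genes rose in FL/FL and in KO/FL mice, and Rrm2, Tk1 and Rrm1 in Lepr-Cre mice, where all 5 passed with the mouse as a block. The Lepr-Cre call of Rrm1 was lost in 5 of 6 cases with 1 library left out (adjusted p up to 0.157). It was also lost with the 6 Lepr-Cre libraries alone (adjusted p = 0.057). Tk1, the salvage enzyme for thymidine, went from 40.1, 44.7 and 55.0 to 91.8, 87.6 and 115 CPM in FL/FL mice (log2 1.08 ± 0.18, adjusted p = 3.76e-05).

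Origin licensing was the role with the largest median rise in FL/FL and KO/FL mice, 0.78 and 0.70 on the log2 scale, and all 4 of its tested genes were called in both. Orc1, the largest subunit of the origin recognition complex, went from 48.8, 50.9 and 50.3 CPM in FL/FL PreCFU-E to 94.9, 102 and 87.1 in CFU-E (log2 0.93 ± 0.14, adjusted p = 7.32e-06). Cdc6 went from 170, 182 and 154 to 243, 278 and 286 CPM (log2 0.68 ± 0.10, adjusted p = 7.32e-06). In both genes all 3 CFU-E libraries lay above all 3 PreCFU-E libraries. The Lepr-Cre call of Orc1 was lost in 3 of 6 cases with 1 library left out (adjusted p up to 0.179). It was also lost with the 6 Lepr-Cre libraries alone (adjusted p = 0.0559), and passed with the mouse as a block (adjusted p = 0.00736). Cdc6 also rose in KO/FL mice (log2 0.78 ± 0.10) and in Lepr-Cre mice, from 178, 166 and 189 to 250, 279 and 270 CPM (log2 0.58 ± 0.10, adjusted p = 0.000221). Gmnn, the inhibitor of licensing, rose in FL/FL (log2 0.53 ± 0.16, adjusted p = 0.0227) and KO/FL mice (log2 0.61 ± 0.16, adjusted p = 0.00998). Its log2 fold change in Lepr-Cre mice was 0.37 ± 0.16 (adjusted p = 0.198, and 0.0439 with the mouse as a block), and Orc6 there also passed with the block alone (adjusted p = 0.0107). With the mouse as a block Gmnn passed in FL/FL and KO/FL mice (adjusted p = 0.000852 and 0.000132). In the fit without a block these Gmnn calls were not stable either. Leaving out any of 4 of the 6 FL/FL libraries (PreCFU-E A or B, CFU-E B or C) took the adjusted p to between 0.0712 and 0.145. Without either of 2 of the 6 KO/FL libraries (PreCFU-E B, CFU-E C) it was 0.0958 and 0.0929.

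The helicase subunits did not all move alike. Mcm2, Mcm4 and Mcm5 rose in each genotype. Mcm5 went from 414, 445 and 390 CPM to 535, 614 and 622 CPM in FL/FL mice (log2 0.51 ± 0.09, adjusted p = 0.000123). Mcm2 went from 506, 540 and 478 to 614, 707 and 695 CPM (log2 0.41 ± 0.10, adjusted p = 0.00315), and Mcm4 from 350, 422 and 354 to 464, 584 and 521 CPM (log2 0.48 ± 0.11, adjusted p = 0.0017). Mcm6, the most abundant subunit, was at 821, 945 and 772 CPM in FL/FL PreCFU-E and 798, 923 and 941 CPM in CFU-E, with overlapping groups (log2 0.07 ± 0.10, adjusted p = 0.687). Mcm3, Mcm6 and Mcm7 passed the threshold in KO/FL mice, where Mcm7 had a log2 fold change of 0.43 ± 0.10 (adjusted p = 0.00301). With the mouse as a block, Mcm3 and Mcm7 also passed in FL/FL mice (adjusted p = 0.0229 and 0.0101) and in Lepr-Cre mice (0.0143 and 0.0103). Mcm3 and Mcm6 passed with it in KO/FL mice (0.00152 and 0.00555), and Mcm4 and Mcm5 in Lepr-Cre mice (0.00102 and 0.00169). Some calls made without a block were not stable. The KO/FL call of Mcm6 (adjusted p = 0.0495) was lost with any library left out, with DESeq2's size factors, without the filter on low counts and with the 6 KO/FL libraries alone, the adjusted p then being between 0.0521 and 0.187. That of Mcm3 (adjusted p = 0.0165) was lost without KO/FL PreCFU-E A or C or CFU-E C, at 0.0536 to 0.115. In Lepr-Cre mice the calls of Mcm4 and Mcm5 (adjusted p = 0.0425 and 0.0211) were lost with all but 1 and all but 2 of the 6 libraries left out in turn, at adjusted p of up to 0.194 and 0.118.

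Of the 6 firing factors, 4 rose in FL/FL mice (Gins4, Gins2, Cdc45 and Gins1), 3 in KO/FL mice and none in Lepr-Cre mice, where the median log2 fold change of the 6 was 0.33. With the mouse as a block, Gins2 and Mcm10 passed in Lepr-Cre mice (adjusted p = 0.0125 and 0.0485). Of the 9 genes of polymerases and primase, 4 rose in FL/FL mice, 4 in KO/FL mice and 1, Prim1, in Lepr-Cre mice, where Pold3 and Pola2 also passed with the mouse as a block (adjusted p = 0.0221 and 0.0455). Prim2, the large primase subunit, went from 135, 112 and 138 CPM to 257, 238 and 216 CPM in FL/FL mice (log2 0.89 ± 0.13, adjusted p = 6.51e-06) and rose by a log2 of 0.76 ± 0.13 in KO/FL mice. Pola2 and Pold3, the accessory subunits of polymerases alpha and delta, and Prim1, the catalytic subunit of primase, were called in both of these genotypes. Pold1 and Pole, the catalytic subunits of polymerases delta and epsilon, had log2 fold changes of -0.14 ± 0.12 and 0.02 ± 0.13 in FL/FL mice (adjusted p = 0.49 and 0.938). Pcna rose in FL/FL mice, from 189, 201 and 181 to 208, 271 and 283 CPM (log2 0.43 ± 0.11, adjusted p = 0.00473). That call was lost without CFU-E library C (adjusted p = 0.0547), and passed with the mouse as a block (0.000287). Pcna also rose in KO/FL mice (log2 0.58 ± 0.11, adjusted p = 0.000216). Its log2 fold change in Lepr-Cre mice was 0.33 ± 0.11 (adjusted p = 0.0516, 0.00613 with the mouse as a block and 0.0383 by DESeq2). All 3 RPA genes rose in FL/FL mice and 2 of them, Rpa1 and Rpa2, in KO/FL mice.

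All 4 genes of chromatin and histone supply rose in FL/FL mice: Slbp, Uhrf1 (which brings the maintenance methyltransferase to new DNA), and Chaf1b and Chaf1a of chromatin assembly factor 1. Slbp went from 154, 175 and 159 to 266, 290 and 284 CPM in FL/FL mice (log2 0.79 ± 0.09, adjusted p = 2.48e-07). In KO/FL mice it went from 189, 179 and 165 to 289, 271 and 305 CPM, and in Lepr-Cre mice from 229, 213 and 226 to 317, 309 and 299 CPM (log2 0.47 ± 0.09, adjusted p = 0.00148). The groups were apart in each genotype and the Slbp calls held with any library left out. Chaf1a shares 52.5% of its exon bases with Ubxn6 on the opposite strand. No source used here gives the strand setting of the counting, so how reads in the shared bases were counted is not known. The same holds for Gins2 and Gse1 (67.3%, with Gse1 at 0 counts) and for Fen1 and Gm10143 (78.8%).

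**Figure D3:**
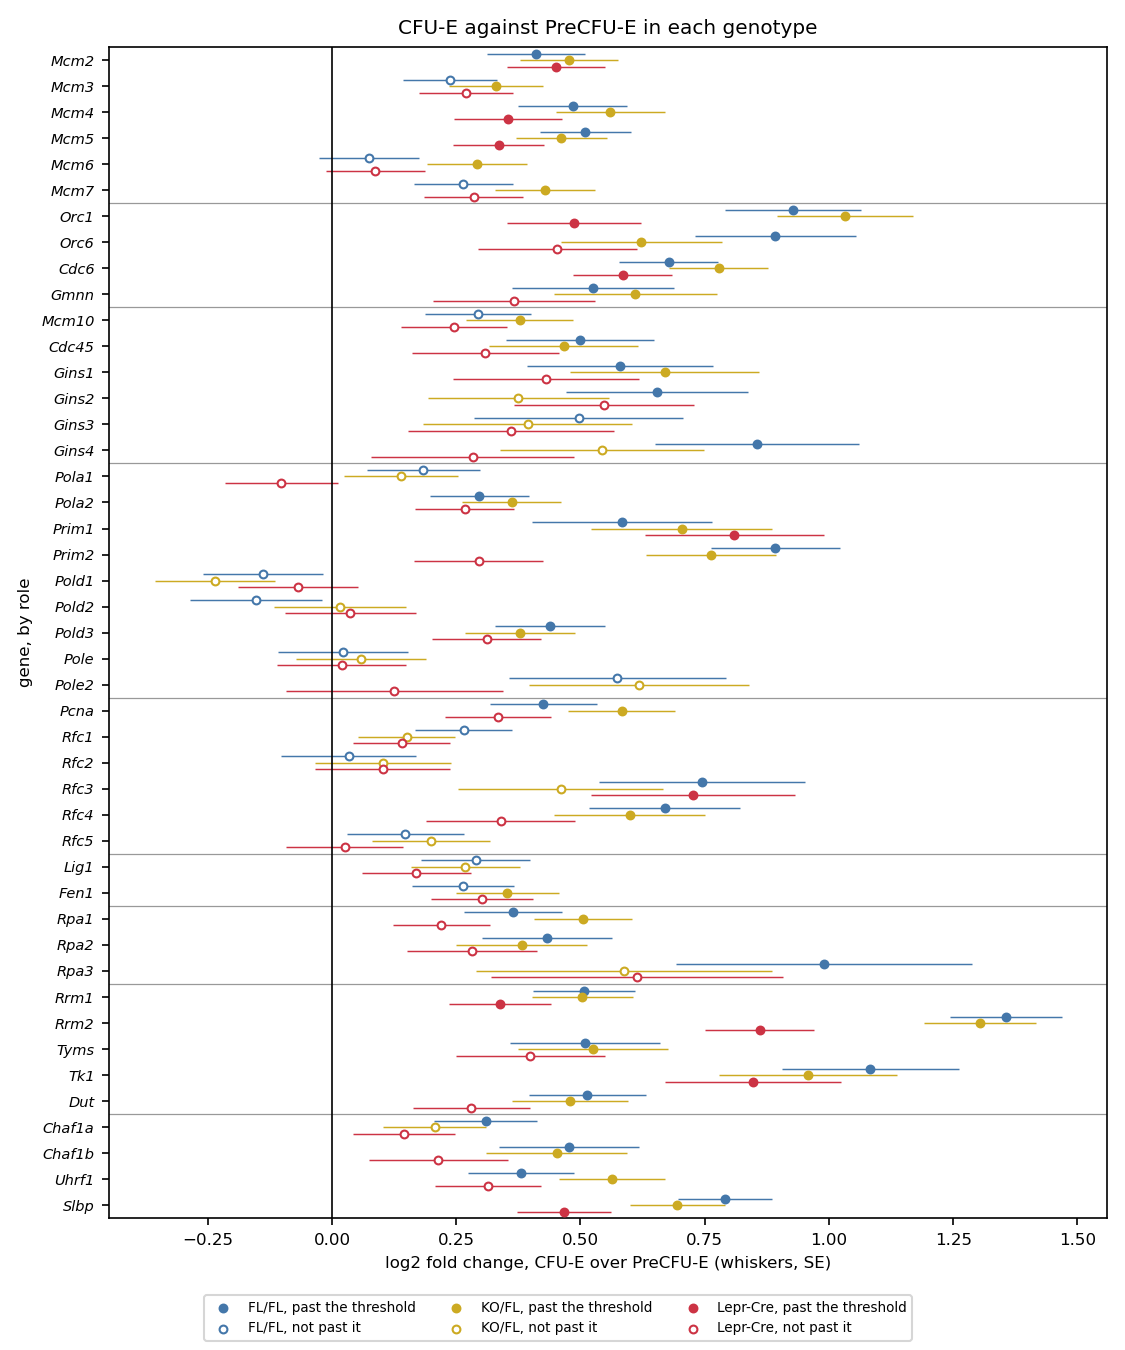
Log2 fold change of CFU-E over PreCFU-E (x axis, whiskers SE) for 45 genes by role in each genotype; filled points passed the threshold of 0.05. Rrm2 lies farthest right in all 3 genotypes (1.36, 1.30 and 0.86), and Pold1, Pold2 and Pole lie near 0.

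The second comparison was of PreCFU-E from Lepr-Cre and FL/FL mice, which differ by the null allele, by Cre and by the deletion. Rrm2, Slbp, Mcm5, Chaf1b and Orc1 were higher in Lepr-Cre PreCFU-E than in FL/FL PreCFU-E, with Rrm2 at 2.06 times the FL/FL level. These 5 of 45 genes passed the threshold, against 2.89% of 10309 tested genes, and none was lower (also 0 at an unadjusted p under 0.05 and by DESeq2, which called 6 genes higher, Pcna being the added one), against 3.24% of tested genes. The median log2 fold change of the 45 was 0.23, beside 0.00 over all tested genes, and 44 of the 45 lay above 0. In 17 of the 45 genes all 3 Lepr-Cre libraries lay above all 3 FL/FL libraries, against 12.2% of tested genes. PreCFU-E libraries of the same letter came from different mice across genotypes, and the labels do not say what the letter stands for. Their deviations from the group means correlated weakly (r 0.109 to 0.18). With the letter as a block 17 genes passed, against 8.3% of tested genes. Those added were Mcm2, Mcm3, Mcm4, Mcm10, Rrm1, Dut, Pcna, Orc6, Prim2, Uhrf1, Rpa1 and Rpa2. The count without a block was 1 without FL/FL library A, 2 without FL/FL C, 2 without Lepr-Cre B and 2 without Lepr-Cre C.

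Rrm2 was at 227, 234 and 270 CPM in Lepr-Cre PreCFU-E A, B and C, against 123, 122 and 112 CPM in FL/FL PreCFU-E (log2 1.04 ± 0.12, adjusted p = 3.78e-06). The 2 groups were far apart, and the highest Lepr-Cre PreCFU-E library passed the lowest FL/FL CFU-E library, at 263 CPM. The call held with any of the 6 libraries left out. Slbp was at 229, 213 and 226 CPM against 154, 175 and 159 CPM (log2 0.46 ± 0.11, adjusted p = 0.00966). Mcm5 was at 516, 562 and 554 CPM against 414, 445 and 390 CPM (log2 0.39 ± 0.10, adjusted p = 0.0211). Orc1 was at 64.9, 71.4 and 80.8 CPM against 48.8, 50.9 and 50.3 CPM (log2 0.54 ± 0.15, adjusted p = 0.0361). Chaf1b was at 120, 109 and 117 CPM against 64.5, 89.4 and 85.3 CPM (log2 0.54 ± 0.15, adjusted p = 0.0279). In each of these the groups did not overlap, but the calls other than that of Rrm2 were lost without some single libraries. Slbp missed the threshold without FL/FL A or C (adjusted p = 0.0539 and 0.053). Mcm5 missed it in 4 of 6 cases (all but FL/FL B and Lepr-Cre A), and Chaf1b and Orc1 each in 5 of 6 (all but FL/FL B for Chaf1b, all but Lepr-Cre A for Orc1), with adjusted p of up to 0.119, 0.164 and 0.16.

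**Figure D4:**
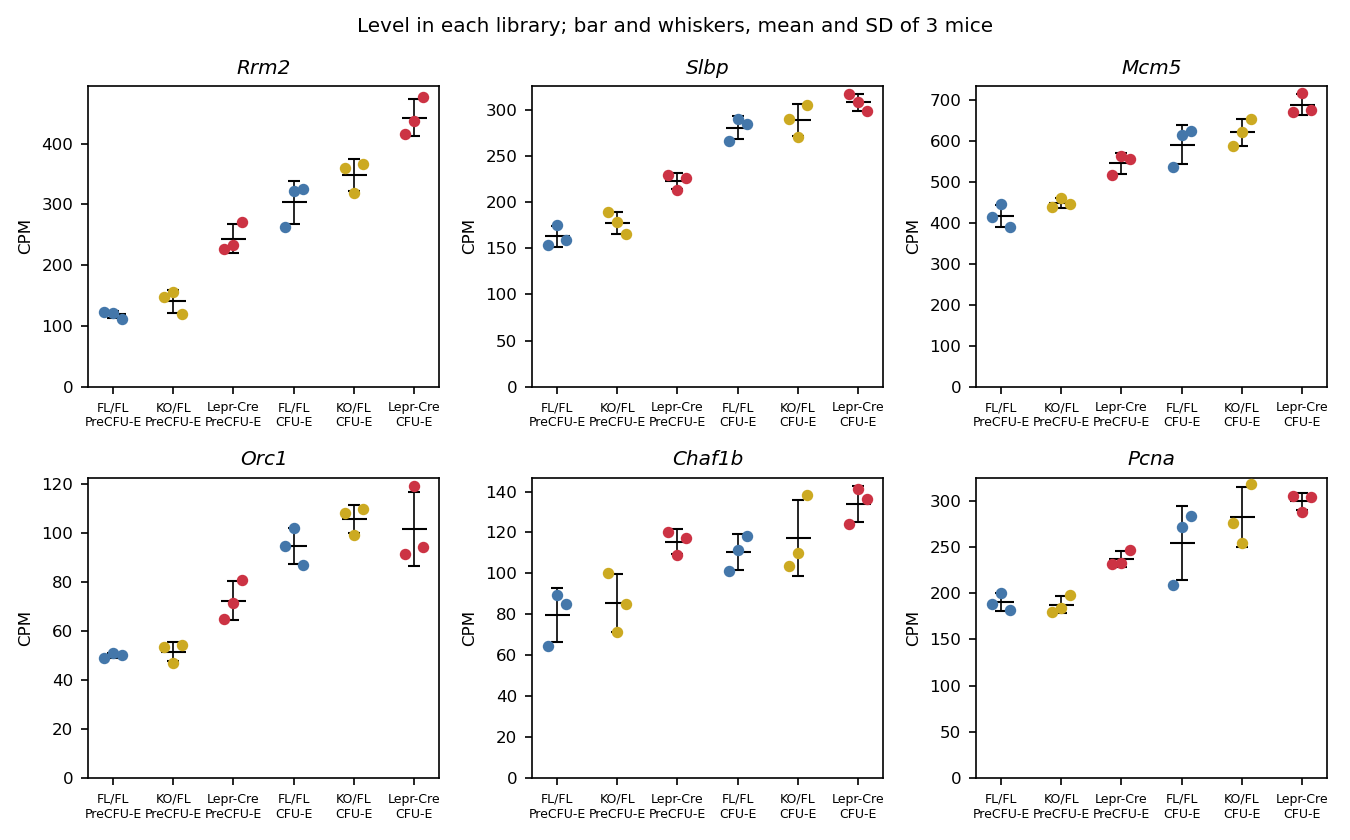
CPM in each library (dots, in the order A, B, C) with the mean and SD of 3 mice per group for Rrm2, Slbp, Mcm5, Orc1, Chaf1b and Pcna. In each gene the Lepr-Cre PreCFU-E dots, such as 227 to 270 CPM for Rrm2, lie above the FL/FL PreCFU-E dots. Pcna did not pass the threshold by edgeR without a block.

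None of the other genes, those of the same roles included, reached the threshold in this comparison by edgeR without a block. Pcna was at 231, 233 and 247 CPM against 189, 201 and 181 CPM, with no overlap (log2 0.32 ± 0.10, adjusted p = 0.0621). The other helicase subunits had log2 fold changes of 0.07 to 0.30, with Mcm4 at 0.30 ± 0.12 and Mcm3 at 0.29 ± 0.11 highest and Mcm7 at 0.07 ± 0.11 lowest. Rrm1 was at 692, 762 and 716 CPM against 576, 620 and 612 CPM (log2 0.27 ± 0.11, adjusted p = 0.161). Cdc6 was at 178, 166 and 189 CPM against 170, 182 and 154 CPM, overlapping (log2 0.08 ± 0.11, adjusted p = 0.761), and Gmnn also overlapped (log2 0.18 ± 0.16, adjusted p = 0.592). The fourth licensing gene, Orc6, had a log2 fold change of 0.52 ± 0.18 (adjusted p = 0.0835), which passed with the letter as a block (0.53 ± 0.14, adjusted p = 0.00675).

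Against KO/FL PreCFU-E, which carry the same Scf alleles without Cre, Rrm2 alone of the 45 genes passed the threshold, at 227, 234 and 270 CPM against 147, 156 and 119 CPM (log2 0.79 ± 0.12, adjusted p = 0.000371). That is 1 gene higher, against 1.02% of tested genes, and none lower (0 also at an unadjusted p under 0.05 and by DESeq2), against 1.16%. The call held with any library left out. The median log2 fold change of the 45 was 0.15, beside 0.00 over all genes, and 15 genes had all 3 Lepr-Cre libraries above all 3 KO/FL libraries, against 9.55% of tested genes. With the letter as a block 11 genes passed, against 4.41% of tested genes: Rrm2, Uhrf1, Mcm2 to Mcm6, Pcna, Slbp, Chaf1b and Orc1. Both comparisons share the 3 Lepr-Cre libraries. KO/FL PreCFU-E did not differ detectably from FL/FL PreCFU-E. No gene passed with edgeR or DESeq2, with 1 gene (Rrm2) at an unadjusted p under 0.05, and 0% of tested genes were called higher and 0% lower. The 3 of smallest p were Rrm2 (log2 0.25 ± 0.12), Orc6 (0.33 ± 0.18) and Rfc3 (0.40 ± 0.23), and the median of the 45 was 0.06.

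Markers of earlier and of later erythroid cells, and Kit, differed between the same groups. The 12 stem and early progenitor markers summed to 299 to 362 CPM in FL/FL PreCFU-E, 246 to 301 in KO/FL, 104 to 148 in Lepr-Cre PreCFU-E and 44.0 to 81.0 in CFU-E of any genotype. Gata2, a factor of stem and early progenitor cells, was at 170 to 193 CPM in FL/FL, 124 to 145 in KO/FL and 48.1 to 70.6 CPM in Lepr-Cre PreCFU-E, while Ly6a was at 0 in all libraries and Cd34 at 0.441 CPM or less. The 8 macrophage markers summed to 311 to 410 CPM in FL/FL, 212 to 379 in KO/FL and 77.6 to 108 CPM in Lepr-Cre PreCFU-E, nearly all of it Apoe. C1qc was at 0 in all PreCFU-E libraries, and Adgre1 stayed at 0.589 CPM or less in them. Late erythroblast markers summed to 140 to 216, 145 to 193 and 177 to 223 CPM in the 3 PreCFU-E groups, and among them Hba-a1, a globin gene with a near-identical copy, was at 0.148 to 2.49 CPM in FL/FL and 4.48 to 6.44 in Lepr-Cre PreCFU-E. The erythroid progenitor markers did not share a direction, and summed to 9138 to 9663 CPM in FL/FL and 8853 to 9903 in Lepr-Cre PreCFU-E. Rhag was at 81.6 to 110.1 CPM in FL/FL and 186 to 209 in Lepr-Cre PreCFU-E, and Tfrc at 367 to 531 and 625 to 863 CPM. Lower in Lepr-Cre were Nfe2 (115 to 132 CPM in FL/FL, 56.1 to 79.4 in Lepr-Cre), Lmo2 (411 to 467, 328 to 400) and Gfi1b (170 to 193, 138 to 165). Kit, the receptor used in the enrichment and sort, was at 737 to 852 CPM in FL/FL, 642 to 830 in KO/FL and 381 to 486 in Lepr-Cre PreCFU-E. The part of these shifts in the higher replication genes was not tested.

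The same comparison was made in CFU-E. Of the 45 genes, Rrm2 was higher in Lepr-Cre than in FL/FL CFU-E, at 415, 437 and 476 CPM against 263, 322 and 326 CPM (log2 0.56 ± 0.11, adjusted p = 0.00433). This was 1 gene, against 2.08% of 10192 tested genes, and none was lower, against 2.75%, although Prim2 was lower at an unadjusted p under 0.05 (log2 -0.26 ± 0.12, adjusted p = 0.227); DESeq2 called none lower. The Rrm2 call held with any library left out, the Lepr-Cre library B included. Mcm3 was at 840, 881 and 827 CPM against 628, 740 and 677 CPM (log2 0.33 ± 0.10, adjusted p = 0.0678) and Mcm2 at 798, 885 and 784 CPM against 614, 707 and 695 CPM (log2 0.30 ± 0.10, adjusted p = 0.094). Both were apart between the groups and passed by DESeq2 (adjusted p = 0.0142 and 0.0271). In 10 of 45 genes all 3 Lepr-Cre libraries lay above the FL/FL libraries, against 10.3% of tested genes, and the median log2 fold change was 0.11. Cdc6 stood at 250, 279 and 270 CPM against 243, 278 and 286 CPM (log2 -0.00 ± 0.10, adjusted p = 0.997).

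Against KO/FL CFU-E none of the 45 genes passed, with 2 at an unadjusted p under 0.05 and none by DESeq2, where 0.294% of tested genes were higher and 0.716% lower. Rrm2 was at 415, 437 and 476 CPM against 361, 319 and 366 CPM (log2 0.35 ± 0.11, adjusted p = 0.147), with no overlap, and passed with the letter as a block (log2 0.35 ± 0.09, adjusted p = 0.0395), the 1 gene that did, against 1.1% of tested genes. The next smallest p were those of Mcm3 (log2 0.24 ± 0.10) and Mcm2 (0.20 ± 0.10). KO/FL and FL/FL CFU-E did not differ detectably in these genes: none passed with edgeR or DESeq2, none had an unadjusted p under 0.05, and 0% of tested genes were called in either direction. Rpa1, Rrm2 and Prim1 had the smallest p, each at a log2 fold change of 0.20.

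**Figure D5:**
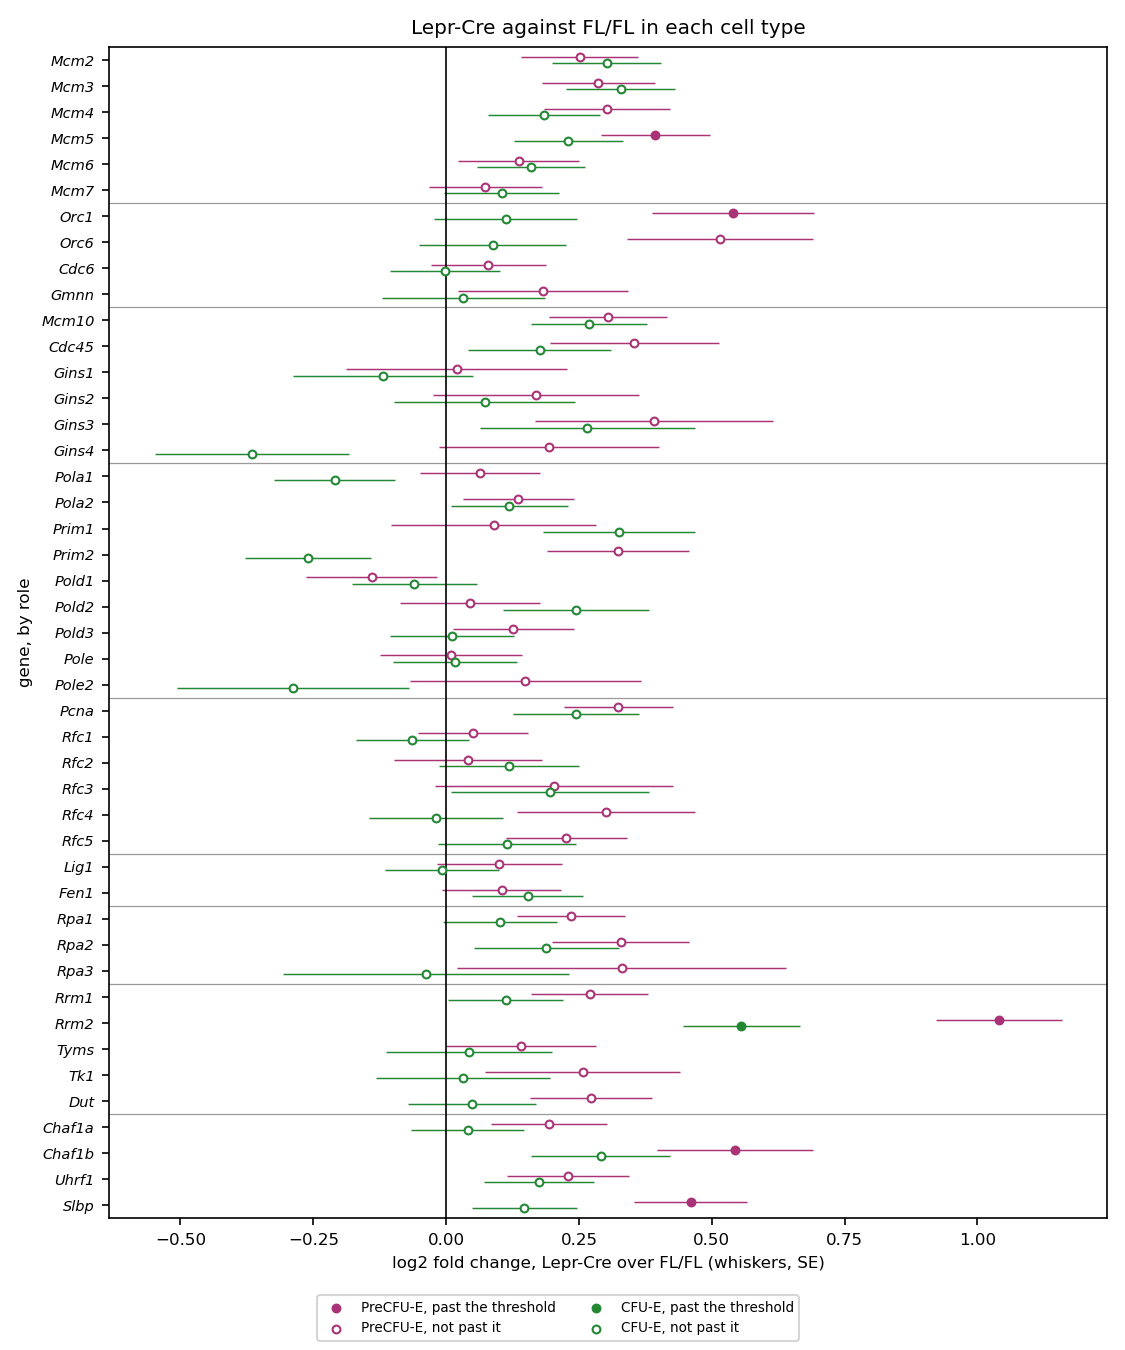
Log2 fold change of Lepr-Cre over FL/FL (x axis, whiskers SE) for 45 genes by role, in PreCFU-E and in CFU-E; filled points passed the threshold of 0.05. Rrm2 is filled in both cell types (1.04 and 0.56), while Slbp, Mcm5, Chaf1b and Orc1 are filled in PreCFU-E.

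The last comparison asked whether the step from PreCFU-E to CFU-E itself differed in Lepr-Cre mice. None of the 45 steps differed at the threshold without a block. Against the FL/FL step, 36 of 45 interaction terms were below 0, with a median of -0.13 on the log2 scale, where 53.1% of all tested genes were below 0 with a median of -0.02. None passed with edgeR or DESeq2, and 4 did at an unadjusted p under 0.05, all below 0, while 0.14% of tested genes were called higher and 0.214% lower. The smallest p were those of Prim2 (log2 -0.60 ± 0.18, adjusted p = 0.2), Rrm2 (-0.50 ± 0.15, adjusted p = 0.221) and Slbp (-0.32 ± 0.13, adjusted p = 0.472). With the mouse as a block, Prim2 and Rrm2 passed (log2 -0.60 ± 0.15 and -0.49 ± 0.13, adjusted p = 0.0269 and 0.0307), against 1.35% of tested genes called lower. Prim2 in Lepr-Cre libraries was at 174, 140 and 165 CPM in PreCFU-E and 169, 190 and 230 CPM in CFU-E. In FL/FL libraries it was at 135, 112 and 138 and at 257, 238 and 216 CPM, with overlapping genotypes in CFU-E. Without a block, Prim2 was not called between these genotypes in either cell type. Against the KO/FL step, 39 of 45 terms were below 0, with a median of -0.14, beside 52.8% of tested genes. None passed with edgeR or DESeq2, 4 had an unadjusted p under 0.05, and 0% of tested genes were called in either direction. Rrm2 (log2 -0.44 ± 0.16), Orc1 (-0.55 ± 0.19) and Prim2 (-0.47 ± 0.18) led, at adjusted p of 0.641 to 0.768. The larger number of genes called in the FL/FL step than in the Lepr-Cre step was not itself tested. Gene by gene, only Prim2 and Rrm2 differed from the FL/FL step, and only with the mouse as a block. The interaction, the steps and the genotype comparisons share libraries.

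Other lists of genes around S phase are read against the shares of all tested genes called higher and lower, which were 8.99% and 9.3% in the FL/FL step, 6.89% and 7.18% in the KO/FL step, 3% and 4.25% in the Lepr-Cre step, 2.89% and 3.24% in Lepr-Cre against FL/FL PreCFU-E, and 2.08% and 2.75% in the same comparison of CFU-E. Of 23 genes of G1/S control, 10 were higher and 2 lower in FL/FL CFU-E than PreCFU-E, with 8 and 1 for KO/FL and 8 and 0 for Lepr-Cre mice. Ccne1, cyclin E1, which with CDK2 starts S phase, went from 74.9 ± 2.83 to 217 ± 16.1 CPM (SD, n = 3) in FL/FL mice (log2 1.54 ± 0.11, adjusted p = 3.72e-11). In PreCFU-E, 5 of the 23 were higher and 1 lower in Lepr-Cre than in FL/FL mice: Ccne1 was at 153 ± 9.97 CPM (log2 1.03 ± 0.13, adjusted p = 1.89e-05), Ccna2, cyclin A2, rose by a log2 of 0.45 ± 0.10, and E2f8, a repressor of E2F targets, fell by 0.46 ± 0.11 on the log2 scale. In Lepr-Cre against FL/FL CFU-E, Ccnd2, cyclin D2, was higher (log2 1.09 ± 0.17, adjusted p = 0.00103), as was Ccne1 (log2 0.45 ± 0.10).

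Of 30 other origin and fork factors, 14 were higher and 1 lower in CFU-E of FL/FL mice, with 11 and 0 for KO/FL and 6 and 0 for Lepr-Cre mice. Recql4, a helicase needed for origin firing, went from 60.1 ± 3.57 to 113 ± 7.46 CPM in FL/FL mice (log2 0.92 ± 0.12, adjusted p = 1.91e-06). It was also higher in Lepr-Cre PreCFU-E, at 91.3 ± 4.61 CPM, than in FL/FL (log2 0.61 ± 0.14, adjusted p = 0.0108) and KO/FL PreCFU-E (log2 0.70 ± 0.15, adjusted p = 0.00891); Orc2, another origin recognition subunit, and Clspn, claspin, were the other 2 higher than in FL/FL. Of 12 other chromatin replication factors, 6, 5 and 1 rose in the FL/FL, KO/FL and Lepr-Cre steps. Nasp (a histone chaperone), Hells (a chromatin remodeller) and Hat1 (a histone acetyltransferase) were higher in Lepr-Cre than FL/FL PreCFU-E, by log2 0.52 ± 0.11, 0.40 ± 0.11 and 0.46 ± 0.12.

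Nucleotide enzymes outside the 46 did not share a direction. Of 27 in the table, 26 were tested between the cell types: 2 rose and 4 fell in FL/FL mice, 1 and 4 did so for KO/FL, and 2 and 1 for Lepr-Cre mice. Dck, deoxycytidine kinase of the salvage pathway, went from 42.7 ± 2.84 to 104 ± 10.2 CPM in FL/FL mice (log2 1.29 ± 0.14, adjusted p = 4.81e-08), and Shmt1, the cytosolic serine hydroxymethyltransferase, from 53.5 ± 15.8 to 16.3 ± 0.832 CPM (log2 -1.70 ± 0.22, adjusted p = 9.91e-07). Dck was also higher in Lepr-Cre than in FL/FL PreCFU-E (81.0 ± 9.16 CPM, log2 0.93 ± 0.16, adjusted p = 0.000708), and Ctps2, a CTP synthase, was lower (log2 -0.76 ± 0.18, adjusted p = 0.0116). Of 14 checkpoint genes 13 were tested. In the steps 5 rose in FL/FL mice, 5 rose and 1 fell in KO/FL mice, and 1 rose and 1 fell in Lepr-Cre mice; none was called between Lepr-Cre and FL/FL PreCFU-E. Of 28 mitosis genes, 11, 5 and 2 rose in the 3 steps and none fell, and 5 were higher in Lepr-Cre than FL/FL PreCFU-E, among them Cdc20 (log2 0.67 ± 0.13, adjusted p = 0.00283) and Aurka (0.51 ± 0.14, adjusted p = 0.0262). In that comparison the median log2 fold change was 0.19 for the mitosis list, 0.17 for G1/S control and for the other fork factors, and 0.23 for the 45 replication genes.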

How the data were processed

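Deposited gene counts were made by the authors with STAR 2.5.2b and HTSeq (version not given) on mm10, per the submitters' processing notes, from SMARTer stranded total RNA libraries, per the labels' protocols. The authors' deposited RPKM values were used for a check of their gene lengths only: 491 of 15424 genes matched their own GENCODE span within 0.1%, so RPKM was not compared between genes, and levels per length use GENCODE M21 transcripts. Counts were tested with edgeR 4.0.16 (R 4.3.3; quasi-likelihood, robust, TMM, filterByExpr at 10 and 15 counts), within each cell type over 9 libraries for genotypes and over 18 for steps and interactions, with Benjamini-Hochberg adjustment over all tested genes. SE is the fold change over the square root of F. The script was checked on simulated counts. Genes named throughout were Mcm2 to Mcm7, Pcna, Rrm1, Rrm2, Cdc6, Cdt1 and Gmnn, with called genes by p up to a fixed number per comparison, or the 3 smallest p where none was called. Alternatives were DESeq2 1.42.0, its size factors, no filter, other libraries in the fit, a replicate block and each library left out. Same-mouse libraries deviated together (r 0.112 to 0.197). Same-letter libraries within a cell type also did (r over 0.1), except FL/FL and Lepr-Cre CFU-E of letter C (0.0885). The letters join different mice and the labels do not say what they stand for, so the letter block was an alternative only. The genes and lists were chosen with earlier results of these data known. Promoters are from RefSeq, GRCm38.p6.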

Additional observations from a re-analysis of the deposited data

How the results depend on the processing

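No named call and no median of the 45 genes changed sign under the alternatives run, but some values near 0 did: with the replicate block, genes above 0 went from 44 to 42 in Lepr-Cre against FL/FL PreCFU-E and from 9 to 11 in the interaction with FL/FL. With the replicate block, 17 genes were called in Lepr-Cre against FL/FL PreCFU-E, 11 against KO/FL PreCFU-E, 1 in Lepr-Cre against KO/FL CFU-E, 24 in the Lepr-Cre step, and 2, both lower, in the interaction with FL/FL. In Lepr-Cre against FL/FL CFU-E, 3 genes were called with the replicate block, 3 by DESeq2 and 2 with all 18 libraries in the fit. With its 6 libraries alone, the Lepr-Cre step had 6 called genes. With each library left out in turn, counts ran from 1 to 4 for Lepr-Cre against FL/FL PreCFU-E, 18 to 31 for the FL/FL step, 20 to 29 for the KO/FL step and 6 to 9 for the Lepr-Cre step. The cause of these shifts was not tested. Named genes kept their call in 467 of 528 recomputed values and lost it in 61. Having 3 mice per group and 3541066 counts in the shallowest library limit what could be detected.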

Other observations

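Values by mouse letter, chosen after they were seen, are given without a test. The summed CPM of Mcm2 to Mcm7 was highest in the mouse lettered B, a female, in 5 of 6 groups and in that lettered C in 1. Gins2 and Dut were highest in the mouse lettered C in 6 of 6 groups, and Gmnn, Pola2, Prim1, Tk1, Rfc4 and Pole2 in 5 of 6. Each mouse gave both cell types, so the 6 groups are not independent, and the share over all genes was not computed. The letters share no mouse across genotypes, and sex and other differences between the mice of one letter cannot be told apart.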
